A study of Rattus norvegicus with 23 samples.

Results

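Gene activity in the heart apex was compared between rats with chronic kidney disease (CKD) that received a kidney from a donor with CKD and rats with CKD that received a kidney from a healthy donor. The 11 libraries, of 23 in all, were chosen by group as given in the sample titles: 6 from CKD recipients of a CKD donor kidney (CD-CR) and 5 from CKD recipients of a healthy donor kidney (HD-CR). In both groups the recipient had CKD, and by design the groups differ in the disease of the donor. The other 12 libraries, from healthy recipients of a CKD donor kidney (CD-HR, 6) or of a healthy donor kidney (HD-HR, 6), were used to show whether the same contrast appeared without CKD of the recipient.

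All animals were Lewis rats, an inbred strain in which a kidney from another animal is an isograft. CKD was produced by ablation of renal mass, followed by L-NNA, which blocks the enzyme that makes nitric oxide, at 200 mg/L in the drinking water and by chow with 6% NaCl. Both agents were stopped once 200 mg of protein was lost in the urine per 24 h, and an animal entered the transplantation protocol at 100 mg per 24 h without them. Every recipient, healthy ones included, received a left kidney, lost the right native kidney 10 to 14 days later and was killed at 6 weeks. An ischemia time of 30 min is given for all animals. The 2 groups therefore share the ablation, L-NNA and NaCl of the recipient, and CD-CR adds a graft from a donor with the same history. The sources used here give neither age nor sex. Each library carries its own animal name.

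The failing kidney acts on the heart through blood pressure, salt and water load, hormones such as angiotensin and aldosterone, retained solutes and disordered phosphate balance, and the ventricle is known to answer with hypertrophy, fibrosis and a return to a fetal pattern of gene activity. Transplantation removes part of that load, and the graft itself differs in function when its donor had kidney disease. The apex is mostly ventricular muscle, with fibroblasts, vessels and resident immune cells among the muscle cells. In bulk tissue of this kind, fewer cells of a type and less RNA per cell cannot be told apart.

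Genes are given by Ensembl rat identifier because the files do not pair identifiers with names, and at most 2 identifiers are printed in each direction. Cell type markers and pathway lists could not be matched for the same reason, so the label heart apex was not checked against its markers, and no role can be stated for a gene named below.

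The 11 libraries held 7801127 to 12444980 counts in genes, with 14263 to 15003 genes detected. Of 6 library measures, none differed between CD-CR and HD-CR. The smallest p was that of reads assigned to more than 1 gene, at 1.27% ± 0.247 (SD, n = 6) in CD-CR and 1.57% ± 0.354 (n = 5) in HD-CR (two-sided exact permutation p = 0.134, adjusted 0.805), where 6 and 5 libraries allow a p of 0.00216 at the lowest. The library CD-CR1 stood apart from the rest of its group. Its 10 most abundant genes held 48.8% of the counts, against at least 63.3% in the other CD-CR libraries, and HD-CR2 had the next lowest share at 51.4%. On the first principal component of the 11 libraries, which held 25.6% of the variance, CD-CR averaged -13.5 ± 21.5 (SD, n = 6) and HD-CR 16.2 ± 10.7 (n = 5). CD-CR1 lay at -54.3 and the other CD-CR libraries between -11.9 and 10.1. The HD-CR libraries lay between 2.09 and 28.3, so CD-CR5 at 10.1 fell among them. The median SD of a gene's log2 CPM within a group was 0.288 in CD-CR, 0.262 in CD-CR without CD-CR1, and 0.250 in HD-CR.

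**Figure D1:**
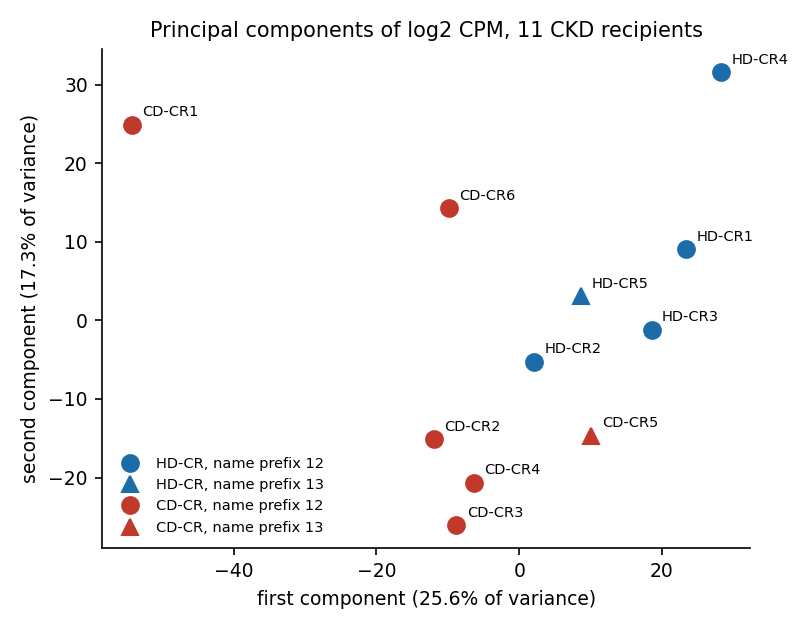
First and second principal components of log2 CPM (counts scaled to library size) in the 11 CKD recipient libraries, with 1 point per library. Blue is HD-CR, red is CD-CR, and the marker shape gives the prefix, 12 or 13, of the deposited animal name. CD-CR1 is at -54.3 on the first component, far from the other CD-CR libraries, and CD-CR5 lies among the HD-CR libraries.

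Most genes were at nearly the same level with either graft. Of 11568 genes tested, 10968 (94.8%) had a fitted difference under 1.5-fold, and the log2 fold changes had a median standard error of 0.18. At an adjusted p under 0.05 by edgeR's quasi-likelihood test, 3 genes were called (0.0259% of those tested). All 3 were lower with a CKD graft. None was called higher by edgeR or by limma-voom, which called 3 lower, 2 of them the same. DESeq2 called 32 (0.25% of the 12782 it tested), 1 higher and 31 lower, the 3 among them. Leaving out HD-CR2 raised the number of edgeR calls to 18, and leaving out both CD-CR1 and HD-CR2 to 13, in each case all lower. The unadjusted p was under 0.05 for 961 genes (8.31%), of which 487 were higher (4.21%) and 474 lower (4.1%). That even split depended on the scaling. With upper quartile scaling in place of TMM it was 372 higher and 567 lower, and without CD-CR1 it was 386 and 580. The 10 most abundant genes, at 14089 to 175890 CPM each, differed by -0.15 to 0.32 on the log2 scale, with 7 higher and 3 lower in CD-CR and 0.864 as their smallest adjusted p by edgeR.

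The higher and lower genes differed in size and in level. Among genes at an unadjusted p under 0.05, the median log2 fold change was 0.39 for those higher in CD-CR and -0.69 for those lower. At least a 2-fold difference was reached by 24 of the higher (0.207% of genes tested) and 157 of the lower genes (1.36%). The excess of lower genes lay in genes of low level: under 2 CPM, 41 genes were higher and 130 lower, from 2 to 10 CPM 128 and 201, from 10 to 50 CPM 213 and 108, and at 50 CPM or more 105 and 35. Among genes at that p, those under 10 CPM were thus mostly lower with a CKD graft and those of higher level mostly higher. From 10 to 50 CPM the counts came closer, to 171 higher and 136 lower without CD-CR1 and to nearly even (147 lower) with upper quartile scaling. At 50 CPM or more they were 116 and 29 without CD-CR1 and 77 and 50 with upper quartile scaling. Levels here are means over all 23 libraries. Genes under 2 CPM also had the widest error, with a median standard error of 0.35 on the log2 scale against 0.13 at 50 CPM or more.

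**Figure D2:**
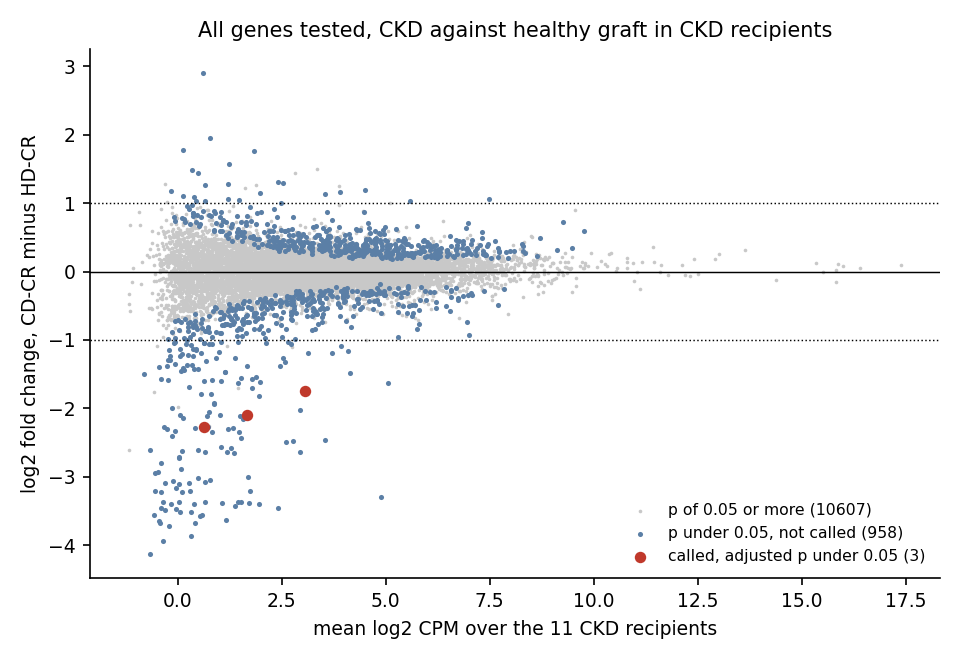
Each point is 1 of 11568 genes, placed by its mean log2 CPM over the 11 CKD recipients (x axis) and its fitted log2 fold change, CD-CR minus HD-CR (y axis), with dotted lines at a 2-fold difference. The 3 called genes (red) all lie below -1, and of the genes at p under 0.05 more lie beyond the lower line (157) than beyond the upper one (24).

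ENSRNOG00000011557 had the smallest p of all genes. The 5 HD-CR libraries had 9.33, 6.18, 9.51, 5.28 and 4.88 CPM, and the 6 CD-CR libraries ran from 0.527 through a median of 1.56 to 3.00 CPM. The groups did not overlap: the lowest HD-CR library (HD-CR5, 42 counts) was above the highest CD-CR library (CD-CR5, 25 counts). These 2 are the libraries with the name prefix 13, and they differed 1.63-fold, while the 9 libraries with prefix 12 differed 5.37-fold between group means. The mean was 7.04 ± 2.23 CPM in HD-CR (SD, n = 5) and 1.68 ± 0.996 in CD-CR (n = 6), a 4.27-fold lower level (log2 -2.09 ± 0.32 SE, adjusted p = 0.00502 by edgeR). It stayed called in all 24 alternative settings tried, with log2 fold changes between -2.43 and -1.90 and an adjusted p of at most 0.0499 (the 2 groups alone).

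The healthy recipients, all of name prefix 13, lay between the 2 groups for this gene. HD-HR ran from 1.58 through a median of 3.48 to 4.155 CPM, and CD-HR from 2.86 through 4.61 to 6.79 CPM. In order of mean level the groups were therefore HD-CR, CD-HR, HD-HR and CD-CR. HD-CR and CD-HR overlapped, as did CD-HR and HD-HR and, at the low end, HD-HR and CD-CR, while all HD-CR libraries lay above all HD-HR libraries and only CD-HR4, at 2.86 CPM, lay below the highest CD-CR library. In healthy recipients the donor difference had the opposite sign and did not pass (log2 0.54 ± 0.30 SE, adjusted p = 0.703). The difference between the donor contrasts, tested as an interaction, was -2.64 ± 0.44 on the log2 scale (adjusted p = 0.0304 by edgeR), and it was the 1 gene called there (0.00864% of 11568 genes). The interaction call was lost, at adjusted p from 0.0506 to 0.110, on leaving out any of 12 single libraries: CD-CR3, CD-CR4, CD-CR6, CD-HR2, CD-HR3, CD-HR5, HD-CR1, HD-CR2, HD-CR3, HD-HR2, HD-HR4 or HD-HR6. Its size then ranged from -2.70 to -2.50. As healthy recipients are all of prefix 13 and CKD recipients mostly of prefix 12, a difference between recipients cannot be told apart from one between prefixes.

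ENSRNOG00000011955 had the largest fitted fall of the called genes. The HD-CR libraries had 3.82, 0.907, 3.23, 4.45 and 4.53 CPM, and the CD-CR libraries ran from 0.360 through a median of 0.685 to 1.15 CPM. HD-CR2, at 0.907 CPM from 11 counts, overlapped with CD-CR6, at 1.15 CPM from 11 counts, and the other 4 HD-CR libraries lay well above all of CD-CR. The 5 HD-CR libraries averaged 3.39 ± 1.48 CPM (SD) and the 6 CD-CR libraries 0.681 ± 0.280, a 4.82-fold lower level (log2 -2.27 ± 0.39 SE, adjusted p = 0.0156 by edgeR). The CD-CR libraries held only 3 to 11 counts of this gene each, so its level there is imprecise. The call was lost by limma-voom (adjusted p = 0.110), among libraries of prefix 12 alone (log2 -2.04, adjusted p = 0.227 by edgeR) and on leaving out CD-CR2, CD-CR4, CD-CR5, HD-CR1, HD-CR4 or HD-CR5 (adjusted p from 0.0545 to 0.0927).

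For this gene the HD-CR mean was above that of every other group. HD-HR ran from 0.509 through 0.854 to 1.69 CPM and CD-HR from 0.133 through 0.349 to 0.923 CPM, so CD-CR overlapped with both groups of healthy recipients. HD-CR2, at 0.907 CPM, lay within the range of both of them too, and the other 4 HD-CR libraries lay above all healthy recipients. The donor difference in healthy recipients had the same sign but did not pass (log2 -1.20 ± 0.47 SE, adjusted p = 0.545 by edgeR), nor did the interaction pass (log2 -1.07 ± 0.64, unadjusted p = 0.107 by edgeR).

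The third called gene, left without its identifier under the limit given above, was the most abundant of the 3. HD-CR libraries had 22.4, 13.3, 20.1, 11.5 and 14.3 CPM, and CD-CR libraries ran from 2.55 through a median of 4.37 to 7.15 CPM. The groups did not overlap. The 5 HD-CR libraries averaged 16.3 ± 4.69 CPM (SD) and the 6 CD-CR libraries 4.86 ± 1.87, a 3.37-fold lower level (log2 -1.75 ± 0.27 SE, adjusted p = 0.00502 by edgeR), and it stayed called in all 24 alternative settings. HD-HR ran from 3.60 through 7.94 to 12.3 CPM and CD-HR from 6.52 through 8.84 to 12.1 CPM, again between HD-CR and CD-CR and overlapping with both. Its donor difference in healthy recipients was 0.19 ± 0.26 on the log2 scale (adjusted p = 0.904), and the interaction (-1.94 ± 0.37) did not pass (adjusted p = 0.128 by edgeR).

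The third gene and ENSRNOG00000011557 varied together from animal to animal. After removal of each group's mean, their log2 CPM had a Pearson correlation of 0.91 over the 11 CKD recipients and 0.83 over all 23 libraries, given here as a description. Within CD-CR alone it was 0.93 (6 libraries) and within HD-CR alone 0.90 (5 libraries), so the relation did not rest on the difference between the groups. Over the 11 libraries without removal of group means it was 0.98, the closest match of each to any gene. ENSRNOG00000011955 did not share this pattern: its correlation of deviations over the 11 libraries was -0.33 with ENSRNOG00000011557 and -0.11 with the third gene. The points share libraries and depth. In the deposited counts, reads assigned to more than 1 gene and non-unique alignments are tallied apart from the genes. Whether the third gene and ENSRNOG00000011557 overlap or are near-identical was not tested.

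**Figure D3:**
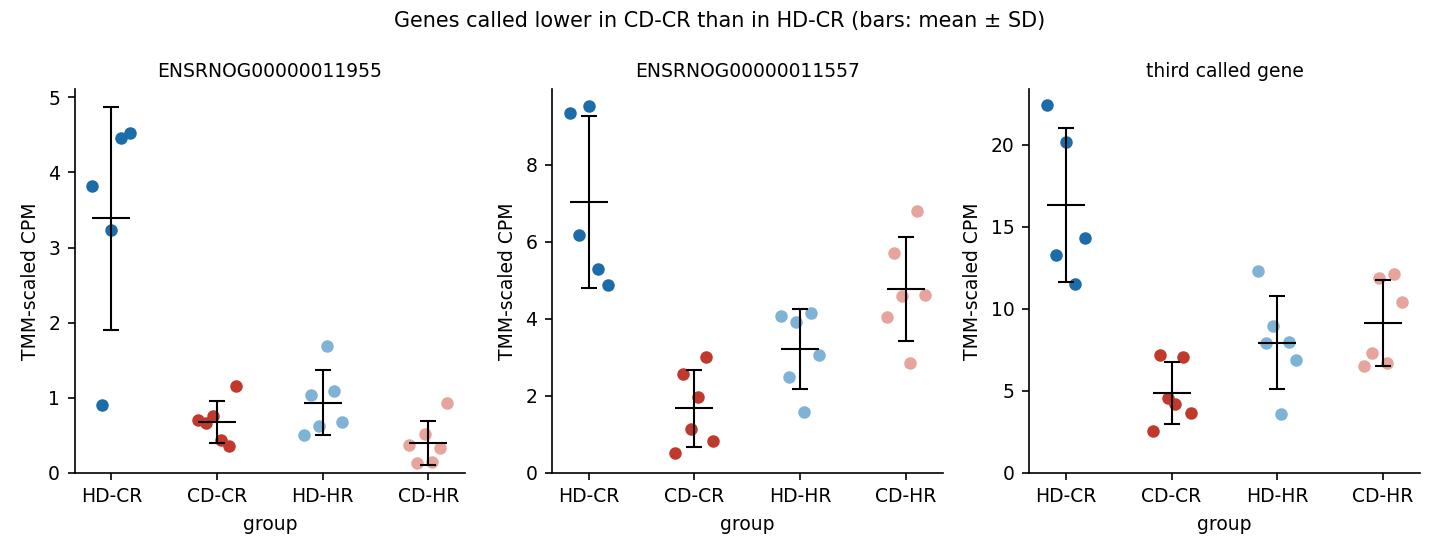
TMM-scaled CPM of the 3 called genes in each of the 23 libraries by group, with black bars for the group mean ± SD. ENSRNOG00000011557 and the third called gene have all 5 HD-CR points above all 6 CD-CR points with healthy recipients between them, while for ENSRNOG00000011955 HD-CR is high in all libraries but HD-CR2, at 0.907 CPM.

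No gene was called higher with a CKD graft by edgeR. Of those with a mean of at least 1 CPM, ENSRNOG00000016242 had the smallest p. HD-CR libraries had 18.5, 19.0, 20.5, 19.4 and 14.8 CPM, and CD-CR libraries ran from 21.8 through a median of 26.1 to 42.6 CPM, without overlap. The high values were those of CD-CR1 (42.6) and CD-CR6 (41.7), and the other CD-CR libraries lay at 27.4 or below. On the log2 scale the difference was 0.71 ± 0.17 SE (adjusted p = 0.142 by edgeR), 0.57 without CD-CR1, and DESeq2 called it (adjusted p = 0.0304). In healthy recipients its donor difference was 0.07 ± 0.16 (adjusted p = 0.946 by edgeR).

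ENSRNOG00000010185 came next. HD-CR libraries had 2.75, 2.80, 3.05, 2.69 and 2.44 CPM, a narrow range, and CD-CR libraries ran from 4.09 through 4.64 to 7.24 CPM. The groups did not overlap, yet the log2 fold change of 0.88 ± 0.22 SE did not pass (adjusted p = 0.170 by edgeR). CD-HR ran from 3.78 through 4.58 to 5.43 CPM and HD-HR from 2.48 through 3.48 to 6.61 CPM. Of the 4 groups HD-CR had the lowest mean (2.75 CPM) and CD-CR the highest (5.08 CPM), and HD-HR overlapped with both.

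**Figure D4:**
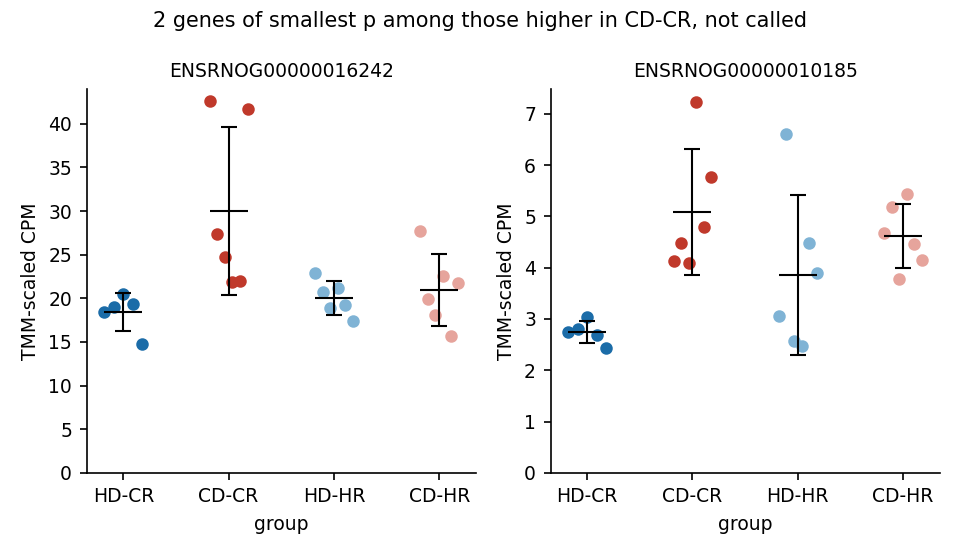
TMM-scaled CPM in each of the 23 libraries for the 2 genes of smallest p among those higher in CD-CR, neither of them called, with black bars for the group mean ± SD. For ENSRNOG00000016242 CD-CR1 and CD-CR6 are near 42 CPM and the rest of CD-CR is between 21.8 and 27.4 CPM, and for ENSRNOG00000010185 the HD-CR points lie together below all CD-CR points.

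The 12 lower genes of smallest p and at least 1 CPM, 3 of them called, had log2 fold changes from -2.62 to -0.54, and the smallest adjusted p among the other 9 was 0.105 by edgeR. HD-CR had the highest mean of the 4 groups in 12 of 12 and CD-CR the lowest in 9. CD-CR1 was the lowest of the 11 libraries in 6 of these 12. The 12 higher genes of smallest p had log2 fold changes from 0.40 to 1.04, none called, with adjusted p from 0.142 to 0.255 by edgeR. In 10 of them CD-CR had the highest mean and in 10 HD-CR the lowest. Both sets of 12 were chosen by the difference between CD-CR and HD-CR, which favours extreme means in these groups, so the counts are a description. The extreme values of the higher genes were concentrated in 2 libraries: CD-CR6 was the highest of 11 in 7 of the 12 and HD-CR5 the lowest in 9. In healthy recipients all 12 were also higher with a CKD graft, 3 of them at an unadjusted p under 0.05 by edgeR. Of the 12 lower genes, 7 kept their sign there, and 2 of the 12 had such a p, whatever the sign. Of all genes tested, 60.2% had the same sign in both recipients and 7.6% had such a p in healthy recipients.

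Without regard to the fit, 77 genes had CPM ranges that did not overlap between CD-CR and HD-CR, 34 higher (0.294% of those tested) and 43 lower (0.372%) in CD-CR. Of these, 68 had an unadjusted p under 0.05 by edgeR and 2 were called.

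The 157 genes at least 2-fold lower in CD-CR at an unadjusted p under 0.05 had their highest mean level mostly in HD-CR, and many of them were high in a few animals. HD-CR had the highest mean of the 4 groups in 154 of the 157, and CD-CR the lowest in 53. Their values in CKD recipients chose them, so those are a description. Without HD-CR4, 104 genes met the same rule, 91 of them among the 157. Within CKD recipients the highest library was HD-CR4 in 77 of the 157, HD-CR3 in 40, HD-CR1 in 20, HD-CR5 in 17 and HD-CR2 in 3. The lowest was CD-CR1, the library that stood apart, in 73. Without CD-CR1, 151 genes met the same rule, 126 of them among the 157.

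The 77 genes that peaked in HD-CR4 formed a block whose level ran from animal to animal over a wide range. Their summed level was 3449 CPM in HD-CR4, 1325 in HD-CR1, 592 in HD-CR3, 287 in HD-CR2 and 115 in HD-CR5. In CD-CR it ran from 71.5 through a median of 96.2 to 470 CPM, the highest being CD-CR6, so HD-CR2 and HD-CR5 lay within the CD-CR range. Healthy recipients entered the choice through the filter on low counts and through each gene's dispersion, which was estimated over all 23 libraries. Among them HD-HR1 stood alone at 2265 CPM. The other HD-HR libraries had 73.3 to 395 CPM and CD-HR 63.8 to 179 CPM. HD-HR1 was the highest of the 12 healthy recipients in 73 of these 77 genes. Over the 12 healthy recipients, the deviations of these genes from their group means had a median pairwise Pearson correlation of 0.85, and of 0.65 over the 11 without HD-HR1. For the 40 genes that peaked in HD-CR3 it was 0.21 in both cases.

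None of the 77 was called. Their median log2 fold change, CD-CR minus HD-CR, was -3.05, and -2.01 without HD-CR4, when 77 of 77 were still lower but 17 had an unadjusted p under 0.05 by edgeR. In healthy recipients the same donor contrast had a median of -4.08 with 64 genes at an unadjusted p under 0.05 and lower. Without HD-HR1 only 67 of the 77 genes still passed the filter on low counts, so the values in healthy recipients are not independent of that library. Of those 67, 4 were lower at an unadjusted p under 0.05, and their median was -1.94. The smaller difference without HD-CR4 follows from the choice of genes, which took those highest in that library. Which cells the block comes from was not tested.

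The other 80 genes, which hold the 3 called genes, had their highest CKD recipient value in one of the other HD-CR libraries. Their summed level was 412 CPM in HD-CR1, 224 in HD-CR2, 506 in HD-CR3, 346 in HD-CR4 and 439 in HD-CR5, and in CD-CR it ran from 96.4 through 127 to 152 CPM. HD-CR2, which also had a low share of counts in its 10 most abundant genes, was here the HD-CR library closest to CD-CR. For the 77 genes the lowest HD-CR library was HD-CR5, at 115 CPM. In healthy recipients the summed level was 133 to 289 CPM in HD-HR and 111 to 223 CPM in CD-HR, overlapping. There 64 of the 80 genes were lower with a CKD graft, with a median log2 fold change of -0.48 and 16 at an unadjusted p under 0.05 by edgeR. Of all 11568 genes tested, 5914 were lower there, 456 of them at that p. Without HD-HR1, 76 of the 80 genes were tested and 50 were lower, 15 at that p, with a median of -0.45.

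**Figure D5:**
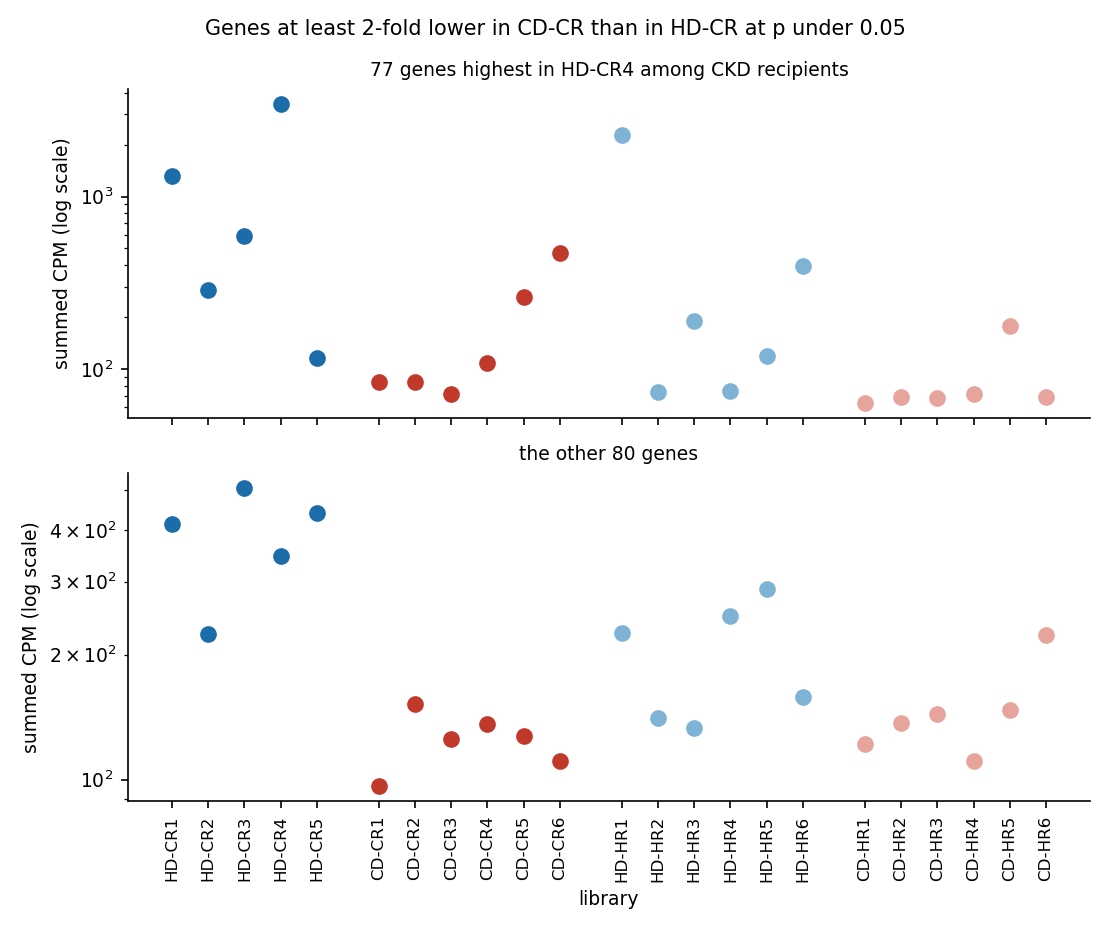
Summed CPM per library (log scale) of the 157 genes at least 2-fold lower in CD-CR at p under 0.05, split into the 77 genes highest in HD-CR4 among CKD recipients (top) and the other 80 (bottom), with 1 point per library coloured by group. In the top panel HD-CR4 (3449 CPM), HD-HR1 (2265) and HD-CR1 (1325) stand out, while in the bottom panel all 5 HD-CR libraries lie above all 6 CD-CR libraries, as the choice of genes favours.

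The 24 genes at least 2-fold higher in CD-CR at an unadjusted p under 0.05 also peaked in few animals. The highest of the 11 libraries was CD-CR6 in 12 of them and CD-CR1 in 10, and none had groups that did not overlap. The number of such genes was 13 without CD-CR1, 13 without CD-CR6 and 41 without CD-CR5.

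The donor contrast in healthy recipients shares no library with the contrast in CKD recipients. There edgeR called 0 of 11568 genes, with 879 at an unadjusted p under 0.05 (7.6%), limma-voom called 0 and DESeq2 called 12 (0.201% of 5959). Of the 961 genes at an unadjusted p under 0.05 in CKD recipients, 768 (79.9%) had the same sign in healthy recipients, against 60.2% of all genes tested. At an unadjusted p under 0.05 in both recipients, 200 had the same sign and 4 the opposite. Without HD-HR1 these numbers were 109 and 8, in a set of 946 genes rather than 961. Of the 946, 722 (76.3%) had the same sign, against 58.1% of all genes. The lower genes carried most of that change, from 121 of 474 to 47 of 460 with the same sign at that p. Of the 121, 64 were in the block of 77 described above. The genes higher in CD-CR had a median log2 fold change of 0.39 in CKD and 0.14 in healthy recipients, and the genes lower in CD-CR had -0.69 and -0.22. At an unadjusted p under 0.05 the interaction held 377 genes (3.26% of those tested), of which 151 were among the 961. The 961 were chosen by their difference in CKD recipients, which favours larger differences there, and the interaction uses the same values. The medians and the 151 therefore do not show whether the donor difference depends on the recipient. The 2 contrasts were fitted together and use the same dispersion for a gene.

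Among the lower genes, HD-CR was more often than CD-CR the group farther from healthy recipients. Of the 474 genes at an unadjusted p under 0.05 and lower in CD-CR, HD-CR was farther from the mean of the healthy recipients in 354 (74.7%), against 56.1% of all genes tested. Of the 487 higher genes this held for 258. Both sets were chosen by the difference between CD-CR and HD-CR in these same libraries. The lower genes were also mostly of low level, under 10 CPM. All genes tested are therefore not a like baseline, and the counts are a description. All healthy recipients are of name prefix 13, and 9 of the 11 CKD recipients carry 12, so distance from healthy recipients cannot be told apart from the prefix, whose meaning the labels do not state. Between CD-CR and HD-CR the prefix is nearly balanced (1 library of prefix 13 in each), and with the prefix as a covariate the same 3 genes were called.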

How the data were processed

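RNA from the heart apex was isolated with Trizol and made into directional libraries from polyadenylated RNA, per the labels' protocols. The deposited values are raw read counts per Ensembl rat gene, with 26405 genes and 5 summary lines. The summary lines were not tested as genes and did not enter library sizes. They gave the library measures on reads in no feature, ambiguous reads and non-unique alignments. The last was also a covariate in an alternative setting. The submitters' processing notes name STAR 2.4.2a, Picard, HTSeq 0.6.1p1 and the build Rnor_5.0. Annotation release and strand setting: not given in the sources used here.

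Groups and replicate numbers came from the titles. No pair of libraries within CD-CR or HD-CR matched within sampling noise (25 pairs, lowest chi-square per degree of freedom 8.38). The labels do not describe litters or housing, and p-values measure the spread between these samples. All 23 libraries entered 1 fit with edgeR 4.0.16 in R 4.3.3 (filterByExpr, TMM, robust glmQLFit, glmQLFTest), with Benjamini-Hochberg adjustment over 11568 genes and a call at an adjusted p under 0.05. The standard error is the size of the log2 fold change over the square root of F. CPM values are TMM-scaled, and log2 CPM used a prior count of 2. Alternatives were limma 3.58.1 (voom), DESeq2 1.42.0, other scalings, filters, covariates and subsets of libraries. The code was tested on simulated counts. Permutation tests of library measures are two-sided and exact.

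Named were every called gene, the 12 of smallest p in each direction at 1 CPM or more, every gene called in the interaction and any gene called in at least 3 alternatives, which added none. The reference table (GRCr8) held 0 Ensembl rat identifiers, so at most 2 identifiers per direction are printed (the largest falls among called genes, the smallest p among higher genes), 0 of 56 gene lists could be tested, and the share of mitochondrial genes was not computed. The contrast and the lists were chosen with earlier results of these data known, and the sets of 157, 77, 80 and 24 genes after their values were seen, as were the values without HD-HR1 and the counts by level under other settings.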

Additional observations from a re-analysis of the deposited data

Results flagged for a closer look

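Of 42 groups of values checked for a library far from the others, 5 held one, where chance gives about 1 in 20. CD-CR1 stood apart from the other CD-CR libraries in the share of counts in the 10 most abundant genes (48.8%, nearest 63.3%) and on the first principal component (-54.3, nearest -11.9). The summed level of the 77 genes that peaked in HD-CR4 was 2265 CPM in HD-HR1, against 395 CPM in the next HD-HR library, and 179 CPM in CD-HR5, against 71.2 CPM in the next CD-HR library. The summed level of the other 80 genes was 223 CPM in CD-HR6, against 147 CPM in the next CD-HR library. The sets of 77 and 80 genes were chosen after their values were seen. Only 67 of the 77 passed the filter on low counts without HD-HR1. The flags on these sums are therefore a description, and the chance rate does not apply to them. The donor difference of ENSRNOG00000011557 differed between CKD and healthy recipients by a test of the interaction, at -2.64 on the log2 scale (adjusted p = 0.0304 by edgeR), a call that leaving out any of 12 single libraries of 23 ended.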

How the results depend on the processing

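In CKD recipients, the 3 called genes were the same 3 under RLE or upper quartile scaling, without a filter on low counts, with a filter at a mean of 1 CPM, with the name prefix or non-unique alignments as covariate, and with a replicate block. Limma-voom called 3 (2 of them the same) and prefix 12 alone 4 (2 the same). DESeq2 called 32 (31 lower), the 2 groups alone gave 7, the top 10 genes' share of counts as covariate 5, and leaving out CD-CR1 and HD-CR2 together, chosen after seeing the data, 13. Each of these 4 settings called the 3 genes too. Leaving out single libraries gave 2 to 18 calls, the highest without HD-CR2 (18, all lower). In healthy recipients DESeq2 called 12, and leaving out single libraries gave 0 to 1. For the interaction DESeq2 called 2, the top 10 genes' share as covariate 2, and leaving out single libraries 0 to 2. The number of genes at least 2-fold lower at an unadjusted p under 0.05 (157) was 287 by DESeq2 and 506 without a filter on low counts. The number at least 2-fold higher (24) was 72 by DESeq2, 180 without the filter, 37 in prefix 12 alone and 15 by limma-voom. The cause of these changes was not tested.

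Replicate numbers are shared between groups, but same-numbered libraries of CD-CR and HD-CR did not deviate together (correlations from -0.18 to 0.11, and 0 of 5 matched best with their own number). With the replicate block 12 genes were at least 2-fold higher at an unadjusted p under 0.05, and 3 genes were called in CKD recipients, 0 in healthy recipients and 0 for the interaction, where ENSRNOG00000011557 was at -2.63 (adjusted p = 0.0736 by edgeR).

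No library measure passed its test as reported, and several changed sign. Within prefix 12 the difference in the share of the 10 most abundant genes was 0.53 percentage points, against -0.17. Leaving out single libraries moved this difference from -2.94 to 2.53, that in total counts from -652760 to 276010, that in genes detected from -258 to -88.1, that in reads in no feature from -1.19 to 0.326 points, that in ambiguous reads from -0.438 (exact permutation p = 0.0190, without HD-CR2) to -0.196 points, and that in log2 non-unique alignments per counted read from -0.15 to 0.41.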
